A study of Mus musculus with 12 samples.

Results

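The genes described here encode the collagens, the laminins and the integrins. They were taken by symbol from the table of reads counted on coding sequence (CDS), and 81 of its 20504 entries matched: 44 collagen, 11 laminin, 18 integrin alpha and 8 integrin beta genes. Another 6 entries whose symbols begin alike, such as Itgb1bp1, Col4a3bp and Itgb3bp, name other proteins and were left out. Of the 81 genes, 16 were too low for any of the tests: Col4a3, Col4a4, Col4a6, Col6a6, Col8a2, Col9a1, Col10a1, Col13a1, Col28a1, Itga2, Itgad, Itgae, Itgal, Itgax, Itgb6 and Itgb7, none of which had more than 49 CDS counts in a library.

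Collagens are triple-helical chains that are built into fibrils, networks and filaments outside the cell. Laminins are assembled from an alpha, a beta and a gamma chain, and together with collagen IV they form the basement membrane, which in the brain lies beneath the blood vessels and the meninges. Integrins are pairs of an alpha and a beta subunit in the cell membrane that bind such matrix proteins and link them to the cytoskeleton.

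Brain tissue of 6 adult mice of the Camk2a-RiboTag line gave the 12 libraries, and for mice A to D the methods name the right frontal lobe. In these mice the Camk2a promoter drives Cre in excitatory neurons of the forebrain, where Cre switches on an HA-tagged copy of the ribosomal protein Rpl22. All 6 mice carried both alleles. Mice A and B received the Captisol vehicle by the study's methods, and the labels call them untreated. Mice C and D were given a single oral dose of 100 mg/kg AZD-8055, an inhibitor of the kinase mTOR, and were killed 1 h later. From each of mice A to D, 1 part of the lysate gave a poly(A) RNA-Seq library and the other a ribosome footprint library, so that both came from the whole tissue and not from tagged neurons alone. Mice E and F, untreated by their labels, each gave RNA-Seq libraries of the homogenate (input) and of the ribosomes pulled down through the HA tag (HA-IP). Each group held 2 mice.

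CDS counts per library summed to between 9309496 and 15585831 in the 8 RNA-Seq libraries and to between 3503873 (mouse C) and 9259938 (mouse A) in the 4 footprint libraries. In the HA-IP libraries 3 of 7 excitatory neuron markers rose (median log2 change 0.90 over the 7), while all 6 inhibitory neuron markers fell. Mouse B stood apart in the summed level of 3 choroid plexus markers, which was 1028 CPM (counts scaled to the total of each library) of RNA and 1190 CPM of footprints, against at most 71.1 and 97.9 CPM in mice A, C and D. Leaving mouse B out is therefore given wherever it changed a call.

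Col4a1 and Col4a2, which encode the main chains of brain collagen IV, lie head to head on chromosome 8. The RefSeq starts of the pair (build GRCm38.p6, 8:11312826 for Col4a1 on the minus strand and 8:11312805 for Col4a2 on the plus strand) enclose 22 bases. These are shown in capitals with 4 flanking bases on either side. Both genes recur below in the comparisons of footprints with RNA and of HA-IP with input.

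Col4a2 to Col4a1, chr8:11312801-11312830 (+): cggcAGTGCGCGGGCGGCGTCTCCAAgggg

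In vehicle mice, translational efficiency (TE, the ratio of normalised footprint counts to normalised RNA counts on CDS) was low for many collagens and varied in both directions among integrins. Of the 57 genes with enough reads to test (37 or more counts on average over the 8 libraries), 20 had a TE more than 2-fold lower than the centre of all genes and 7 had one more than 2-fold higher (edgeR quasi-likelihood test, Benjamini-Hochberg adjusted p under 0.05). Over all 11797 genes tested, 17.6% were called lower and 13.2% higher. The lower calls were therefore 35.1% of the genes described here against a background of 17.6%, and the higher calls, at 12.3%, were near their background. Of the 30 collagens 16 were lower and 3 higher, with a median log2 TE of -1.23 (-0.51 over the 22 with enough of both kinds of read, as given next), whereas 1 of 10 laminins was lower and none higher, with a median of 0.34. Integrin alpha genes had 3 higher and 2 lower calls among 12, and integrin beta genes 1 and 1 among 5. The median over all genes was -0.01.

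Some of these calls rested on few footprints. A total of 46 genes reached 75 counts over mice A and B in both kinds of library, and among these 13 (28.3%) were lower and 6 (13.0%) higher, beside 14.4% and 13.4% of the 10868 genes tested that met the same limit. Of the 22 collagens among them 10 were lower and 3 higher. The 7 lower calls outside that limit were Col24a1, Col20a1, Col27a1, Col15a1, Col5a2, Col26a1 and Itga10. These entered the test through their RNA, and Itga4 through its footprints, so a difference in that direction was built into their entry and their values are descriptions. Over the 46 genes, log2 TE in mice A and B correlated at a Pearson r of 0.957 (Spearman rho 0.959, across genes, which are not replicates and share both libraries), and the 2 mice lay within 2-fold of each other for 45. The exception was Col18a1, the source of endostatin, for which log2 TE was -1.53 in the first mouse and -0.18 in the second.

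**Figure D1:**
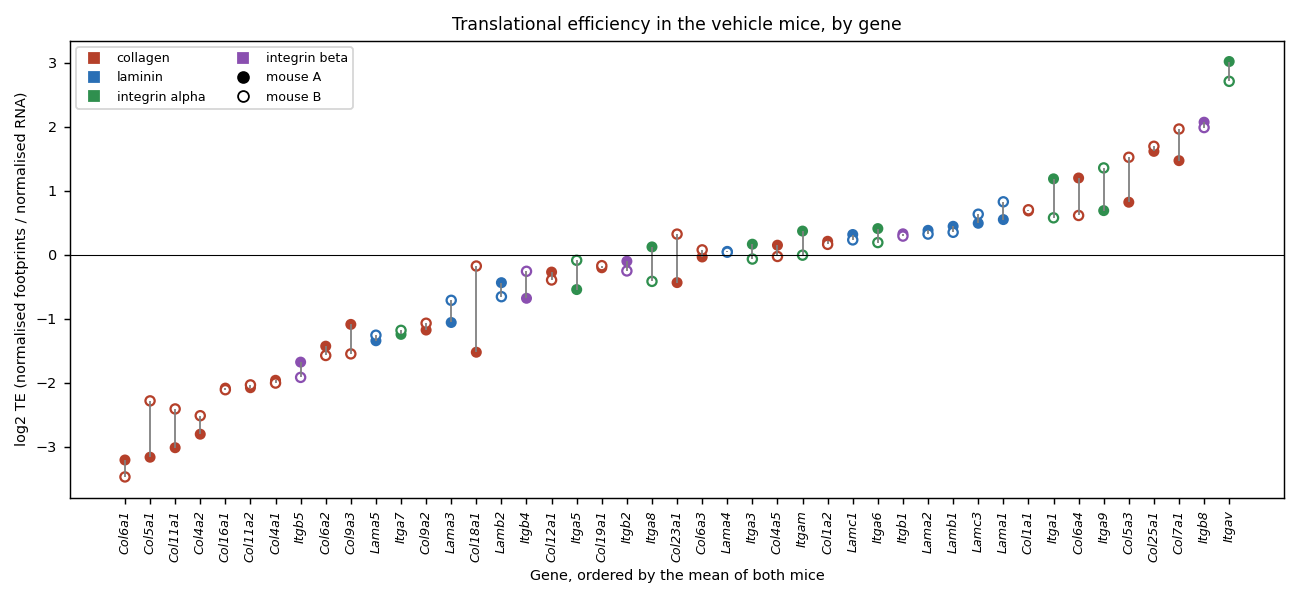
Log2 TE (vertical axis) of 45 genes with at least 75 counts in both kinds of library, ordered by the mean of both vehicle mice, with mouse A as filled and mouse B as open circles and the families in colour. Collagens such as Col6a1, Col5a1 and Col4a2 sit at the low end, and Itgav, Itgb8, Col7a1 and Col25a1 at the high end.

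Both chains of collagen IV carried few footprints for their RNA. Col4a1 had normalised RNA counts of 672 and 667 in mice A and B and footprint counts of 172 and 166. For Col4a2 the RNA counts were 1016 and 1057, and the footprint counts 145 and 184. In both genes every footprint value lay far below every RNA value. The fitted log2 TE was -1.94 (SE 0.11) for Col4a1 and -2.65 (SE 0.13) for Col4a2, with adjusted p-values of 1.7e-10 and 6.3e-11 (edgeR). Col4a5, another collagen IV chain, did not pass, at 0.03 (SE 0.29), and Col4a3, Col4a4 and Col4a6 were too low to test, with no more than 28, 21 and 41 CDS counts in any library.

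Collagen VI forms beaded filaments around vessels and in the meninges, and its alpha1 chain had the lowest TE of the set. Col6a1 held 1557 and 1600 normalised RNA counts in mice A and B and 168 and 144 footprint counts, and its fitted log2 TE was -3.28 (SE 0.13, adjusted p = 3.4e-12, edgeR). Its partner Col6a2 was also lower, at -1.45 (SE 0.13), with RNA counts of 358 and 350 and footprint counts of 133 and 117. The third classical chain, Col6a3, was at 0.03 (SE 0.18).

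Fibrillar collagens, which build the tensile fibrils of connective tissue, divided. Among the 6 with enough of both kinds of read, 3 were lower, namely Col5a1 at -2.73 (SE 0.24), Col11a1 at -2.73 (SE 0.22) and Col11a2 at -2.04 (SE 0.17). Col24a1 (-2.75), Col27a1 (-1.66) and Col5a2 (-1.42) had low values too but entered through their RNA. Col5a3 was higher, at 1.20 (SE 0.25). The chains of collagen I, the most common fibril of skin and bone, were not called: Col1a1 had normalised RNA counts of 109 and 137 beside footprint counts of 175 and 222 (log2 TE 0.71, SE 0.17), and Col1a2 had 239 and 252 beside 276 and 281 (0.22, SE 0.12). Collagen I thus lay above the median of all genes in both vehicle mice.

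Of the 5 fibril-associated collagens with enough of both kinds of read, 3 were lower, namely Col16a1 (-2.10), Col9a3 (-1.39) and Col9a2 (-1.11). Col20a1 (-1.69) and the multiplexin Col15a1 (-1.53) entered through their RNA. The 2 collagens with a high TE outside the fibrils were Col7a1 and Col25a1. Col7a1, which forms anchoring fibrils under epithelia, had RNA counts of 63.7 and 85.7 and footprint counts of 176 and 335, with mouse B the higher in both (log2 TE 1.74, SE 0.46). The transmembrane collagen Col25a1, known as the precursor of a peptide found in amyloid plaques, had RNA counts of 138 and 145 and footprint counts of 424 and 471 (log2 TE 1.69, SE 0.11).

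Laminin chains were spread narrowly. Lama5, a chain of vessel laminins, was the single call, with RNA counts of 194 and 262, footprint counts of 76.3 and 109, and a log2 TE of -1.32 (SE 0.22, adjusted p = 6.3e-05, edgeR). Lamb1 stood at 0.43, Lamc1 at 0.31, Lama2 at 0.37, Lama4 at 0.07 and Lamb2 at -0.51, none of which reached the 2-fold limit. The gene just outside the limit on the low side was Lama3 at -0.88, with Col9a2 just inside, and on the high side Itga9 at 1.04 lay just inside and Col14a1 at 0.97 just outside.

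Integrin subunits covered nearly the whole range. Itgav, the alpha subunit of the vitronectin and latent TGF-beta receptors, had normalised RNA counts of 247 and 291 and footprint counts of 2000 and 1903 in mice A and B, and the highest TE of the set (log2 2.90, SE 0.10, adjusted p = 1.6e-12, edgeR). Itgb8, a beta subunit that pairs with it, had RNA counts of 135 and 139, footprint counts of 569 and 552 and a log2 TE of 2.07 (SE 0.10). Another beta partner of Itgav, Itgb5, lay at the opposite end, with RNA counts that exceeded its footprint counts throughout and a log2 TE of -1.76 (SE 0.10). Itgb1, the subunit shared by most matrix integrins, was at 0.35 (SE 0.08) and under the fold limit, with RNA counts of 614 and 602 and footprint counts of 770 and 736. Itga9 (1.04, SE 0.22), an alpha subunit that binds VCAM-1 and tenascin, was higher and the laminin receptor Itga7 (-1.22) lower. The close relative of Itga9, Itga4, stood at 2.62, with 28 and 26 raw RNA counts beside 161 and 61 footprints, and the collagen receptor Itga10 at -1.33, with 16 and 22 footprints. The microglial subunit Itgam lay at 0.24, the leukocyte subunit Itgb2 at -0.18 and the hemidesmosome subunit Itgb4 at -0.46.

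**Figure D2:**
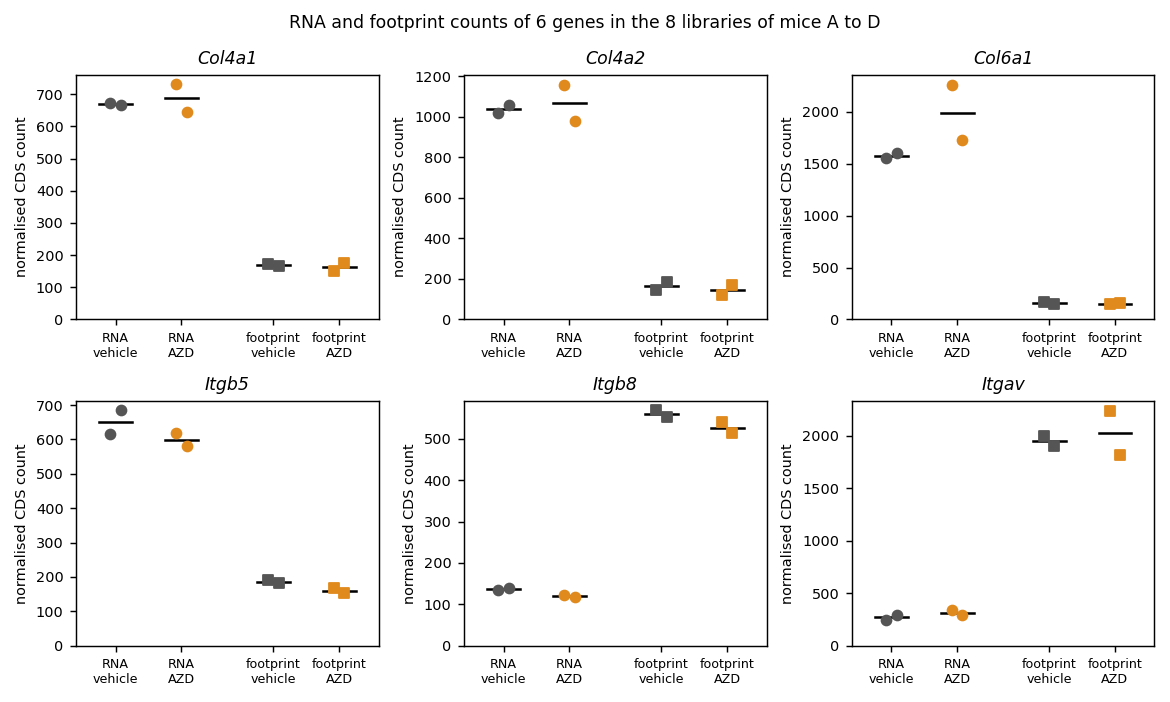
Normalised CDS counts (vertical axes, each from 0) of 6 genes in the RNA (circles) and footprint (squares) libraries of vehicle (grey) and AZD-8055 (orange) mice, 1 point per mouse with the group mean as a bar. RNA exceeds footprints for Col4a1, Col4a2, Col6a1 and Itgb5 and the reverse holds for Itgb8 and Itgav, in both groups.

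The share of RNA reads that fell on CDS differed among the genes with a high TE. Over genes with at least 100 exon reads, the median share of exon reads on CDS was 62.3% in both vehicle RNA libraries. For Itgav it was 22.5 and 26.3% in mice A and B, for Itga4 13.8 and 12.8%, and for Col25a1 17.9 and 16.6%, whereas for Itgb8 it was 80.3 and 77.2%. Of the 48 genes tested for TE with at least 100 exon reads in both libraries, 6 had a share under 40% in both mice (Itgav, Itga4, Itga9, Col25a1, Col19a1 and Col23a1). Of those 6, 4 were called higher (Itgav, Itga4, Itga9 and Col25a1) and none lower. Among the other 42, 2 were higher and 19 lower. Itga4 is among these 4 and entered the test through its footprints. The same split over all genes is not given here, so these counts are descriptions. The part of this share in the high TE values was not tested. Among marker lists of the cells that could carry these RNAs, all 10 endothelial genes lay below the median TE of all genes (fitted median log2 TE -0.80, 3 called lower). Their summed level was 309 and 361 CPM in vehicle RNA but 182 and 163 CPM in vehicle footprints. None of those markers was at 0. The 8 mural markers had a fitted median log2 TE of -0.32, with 6 of them below 0 and 1 called lower. Fibroblast or meningeal markers differed from this: the 6 tested had a fitted median of 0.62, with 1 called higher and none lower. The summed level of the fibroblast or meningeal list was 81.4 and 87.7 CPM in vehicle RNA and 117 and 119 CPM in vehicle footprints. Glial lists varied as well. The 10 microglial markers had a fitted median log2 TE of -0.07, with none called. Astrocyte markers stood at 0.44, with 2 of 8 called higher and none lower. Oligodendrocyte precursor markers were at 1.17, with 2 of 3 higher, and oligodendrocyte markers at -0.13, with 1 of 7 called in each direction. The part of these cells in the TE of any gene was not tested.

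Leaving out 1 vehicle mouse ended 6 of the TE calls. Without mouse A, Itga10, Col9a2 and Col26a1 were no longer called, and without mouse B, Col5a3, Col7a1 and Itga9 were not. Without mouse B, Col6a4 (1.21) and Itga1 (1.20) were called higher and Col18a1 (-1.50) and Lama3 (-1.04) lower. RNA reads were not strand-specific, so reads from a stretch shared by genes cannot be told apart by strand. By whole gene span, introns included, 38 of the 81 genes overlap another RefSeq gene. Among them are Itga4 (with Cerkl), Itga7 (with Mettl7b), Itga1 (with Pelo), Col9a3 (with Tcfl5) and Col4a1 with Col4a2. Overlap of exons or CDS was not examined, and the starts of Col4a1 and Col4a2 enclose only 22 bases.

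The RiboTag pull-down asked which of these RNAs sit on ribosomes of Camk2a-expressing neurons. In the HA-IP against the input of mice E and F, 45 of 62 genes tested on exon counts fell more than 2-fold and none rose (edgeR quasi-likelihood test, adjusted p under 0.05). That is 72.6% against 21.8% of all 13254 genes tested, and the rises, 0 of 62, compare with 11.7% of all genes. At an unadjusted p under 0.05, 52 of the 62 passed in either direction, and DESeq2 called 45 lower and 1 higher. The median log2 change was -2.12 against -0.03 for all genes. Since reads in the input alone could carry a gene past the filter, 39 genes with an average of 37 or more reads in both the inputs and the HA-IP were also counted: 23 (59.0%) fell, beside 15.6% of the 12012 genes of that kind. Of the 62 genes, all 10 fibrillar collagens, all 3 collagen IV chains and all 5 laminin alpha chains tested fell. Some of these, such as Col5a2 with 16 and 17 raw exon reads in the HA-IP, passed through the input alone. A fall was built into the entry of such genes, so these counts are descriptions. Scaling by total counts moved the median of all genes to -0.31 and the split of all calls from 1545 higher and 2888 lower to 774 and 3653, and 47 of the 62 genes then fell.

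Collagen chains fell in both mice. Col6a1 went from normalised exon counts of 5413 and 3264 in the inputs of mice E and F to 711 and 619 in the HA-IP libraries. Col4a1 went from 2142 and 1768 to 309 and 335, and Col4a2 from 3090 and 2492 to 477 and 491. No HA-IP value of these 3 genes overlapped the inputs. Their fitted log2 changes were -2.82 (SE 0.25), -2.72 (SE 0.14) and -2.64 (SE 0.14), with adjusted p-values of 1.9e-04, 6.1e-05 and 6.2e-05 (edgeR). The lowest fitted value was that of Col24a1, a minor fibrillar chain, from 306 and 356 to 9.32 and 13.8 (-4.93, SE 0.26), followed among collagens by Col4a5 (-4.58), Col11a1 (-4.24), Col7a1 (-3.94) and Col11a2 (-3.94). Col24a1, Col4a5 and Col7a1 had between 1 and 12 raw reads in an HA-IP library and passed the filter through the input, so that their folds are loosely fixed. Col11a1 passed through the input as well.

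Laminins fell in 8 of 11 cases. Lamb2, the beta chain of vessel and synaptic laminins, went from 900 and 753 to 51.9 and 56.5 (log2 change -4.04, SE 0.17), and Lamc3 had 235 and 260 raw exon reads in the inputs and 4 and 10 in the HA-IP libraries (-4.62, SE 0.35, passed through the input). The widely used gamma chain Lamc1 went from 1054 and 842 to 324 and 256 (-1.83, SE 0.17), and Lama2, the alpha chain affected in congenital muscular dystrophy, from 326 and 337 to 115 and 120 (-1.61, SE 0.16). Lamb1 was under the fold limit at -0.74 (SE 0.15). Lamb3, a beta chain of epithelial laminin, went from 89.9 and 40.1 to 133 and 77.2 (0.59, SE 0.45, not called).

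Integrins fell in 12 of 19 cases. Itga1, a collagen receptor, had 194 and 318 raw exon reads in the inputs and 4 and 9 in the HA-IP libraries (-4.74, SE 0.35, passed through the input). The microglial subunit Itgam went from 648 and 579 to 21.3 and 36.9 (-4.49, SE 0.24) and also passed through the input. Among beta subunits, Itgb8 fell from 392 and 475 to 21.3 and 32.3 (-4.11, SE 0.25, passed through the input). Itgb5 fell from 1061 and 820 to 112 and 111 (-3.19, SE 0.17) and Itgb1 from 1397 and 1519 to 466 and 524 (-1.67, SE 0.11). Itgb2 and Itgb4 fell too, at -3.46 and -3.16 (both passed through the input), while Itgb3 was at -0.39 (SE 0.25). The fitted change was near 0 for Itga2b (0.07, SE 0.23), Col9a2 (0.17, SE 0.22) and Col22a1 (0.04, SE 0.38).

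**Figure D3:**
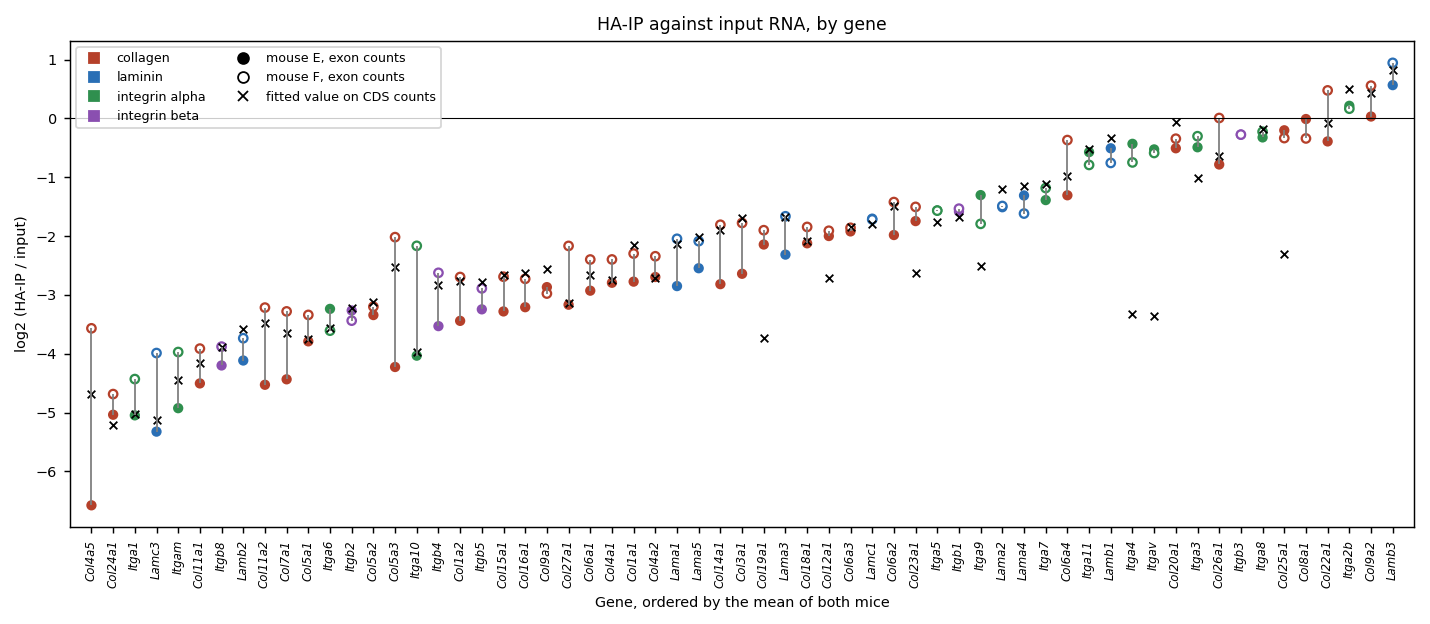
Log2 ratio of HA-IP to input (vertical axis) for 61 of the genes tested, ordered by the mean of mice E (filled) and F (open) on exon counts, with crosses for the fitted value on CDS counts (drawn where the gene was tested there). Most genes lie below 0 in both mice, and the crosses of Itgav, Itga4, Col25a1 and Col19a1 lie far under their circles.

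Counting on CDS in place of whole exons changed the call for 3 integrins and 1 collagen. On CDS counts 49 of 60 genes fell and none rose (51 of the 60 passed in either direction at an unadjusted p under 0.05), against 26.1% lower and 20.4% higher among all genes. Itgav was at -0.68 (SE 0.14) on exon counts, under the fold limit, and at -3.35 on CDS counts. Itga4 was at -0.71 and -3.32, Col25a1 at -0.39 and -2.31, and Itga3, the alpha3 laminin receptor subunit, at -0.52 and -1.02, so that these 4 were called lower on CDS only. Col19a1 was called on both, at -2.13 and -3.74. The exon value exceeded the CDS value by over 1 log2 in 4 of 60 genes (6.67%), a share close to the 7.30% of all genes.

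The reads behind these values lay mostly outside the CDS in the HA-IP libraries. For Itgav, CDS reads were 38.1 and 35.5% of exon reads in the inputs of mice E and F and 5.28 and 3.30% in their HA-IP libraries, that is 56 of 1060 and 48 of 1456 reads. Over Itgav, Itga4, Col25a1 and Col19a1 the share ran from 20.9 to 38.1% in the inputs (95% Wilson intervals within 17.5 to 40.1%) and from 2.13 to 6.99% in the HA-IP (within 0.83 to 10.3%), and these intervals cover counting error only. The median share over all genes also fell, from 65.5 and 64.5% in the inputs to 50.1 and 46.8% in the HA-IP. In Lamb2 and Lamb1, by contrast, the share over both mice went from 99.8 to 100% and from 98.8 to 96.0%.

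**Figure D4:**
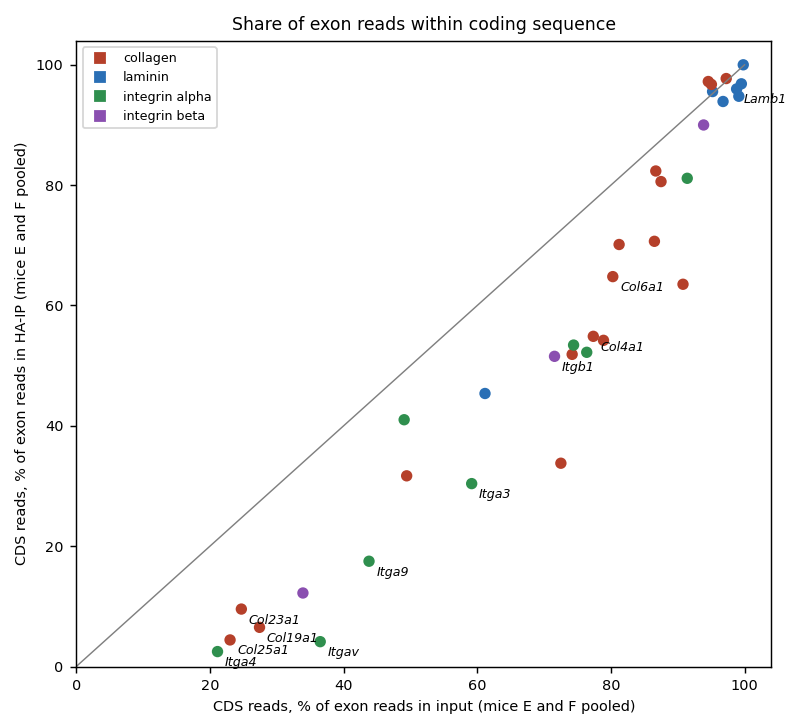
Share of exon reads that fell on CDS in the inputs (horizontal axis, %) and in the HA-IP libraries (vertical axis, %), reads of mice E and F pooled, for 35 genes with at least 100 exon reads in each input and 30 in each HA-IP library, with a grey line of equality. The share is lower in the HA-IP for 30 of 35, and under 10% for 5 genes in the lower left corner.

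Markers of other cells fell along with these genes. Of the marker lists, all 10 endothelial genes (median log2 change -3.68), 7 of 8 mural genes (-3.67) and all 6 fibroblast or meningeal genes tested (-2.75) fell. So did 9 of 10 microglial (-3.20), 7 of 8 astrocyte (-3.02), all 7 oligodendrocyte (-2.84) and all 3 oligodendrocyte precursor genes (-3.48). Of all genes tested, 21.8% fell. Markers could pass the filter through the input alone, which builds a fall into their entry, so these counts are descriptions. The summed endothelial level went from 328 and 359 CPM on exons in the inputs to 19.6 and 32.4 CPM in the HA-IP, with no endothelial, mural or fibroblast marker at 0 in both HA-IP libraries. In collagens the summed level went from 1169 and 951 CPM to 177 and 197 CPM, in laminins from 222 and 201 to 71.5 and 66.0 CPM, and in integrins from 455 and 470 to 134 and 148 CPM. The part of these cell types in the fall of any single gene was not tested. Input and HA-IP of a mouse were taken from the same lysate, so these levels compare fractions of the same tissue.

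TE in mice A and B and the HA-IP change in mice E and F were weakly related over the 56 genes with both values (Pearson r 0.245, Spearman rho 0.230, a description across genes). Itgb8, with a TE among the highest, was among the genes that fell most in the HA-IP, and so was Col11a1, with a TE among the lowest. Both genes passed the HA-IP filter through the input, so a fall was built into their entry.

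AZD-8055 left no call among these genes 1 h after dosing. For TE, 0 of 57 passed (background 0.305% of 11797 genes), 5 had an unadjusted p under 0.05, and DESeq2 called 0, with 1 at an unadjusted p under 0.05. For footprints 0 of 48 passed (background 1.03% of 10695 genes), with 4 at an unadjusted p under 0.05, and 0 and 1 by DESeq2. For RNA 0 of 60 passed (background 0.148% of 12182 genes), with 8 at an unadjusted p under 0.05, and 0 and 5 by DESeq2. The median SE of a log2 change was 0.30 for TE, 0.21 for footprints and 0.15 for RNA. Changes of less than 2-fold were fitted for 55 of 57, 47 of 48 and 59 of 60 genes.

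The genes nearest to a call in RNA were collagens. Col1a1 had normalised RNA counts of 109 and 137 in mice A and B and 84.0 and 77.2 in mice C and D, so that the groups did not overlap (log2 change -0.63, SE 0.16, adjusted p = 0.21, edgeR). Col6a4, a collagen VI chain, had 20.7, 56.2, 89.6 and 78.5 in mice A to D, with mouse A far below the others (1.08, SE 0.30, adjusted p = 0.25), and without mouse B it was called higher, at 2.00. Its TE change was -1.23, which the fit with the mouse as a block called lower (-1.38, adjusted p = 0.032). Col6a1 had 1557 and 1600 against 2256 and 1731 (0.31, SE 0.10, adjusted p = 0.32).

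In footprints the lowest p belonged to Itgb1, with normalised counts of 770 and 736 in vehicle and 658 and 562 in AZD-8055 mice (log2 change -0.31, SE 0.09, adjusted p = 0.20, edgeR). Col7a1 had the widest change, 1.07 (SE 0.48, adjusted p = 0.39), with 176, 335, 199 and 784 in mice A to D, so that mouse D alone was high. Without mouse C, which leaves mouse D as the only treated library, 5 collagens were called higher (Col7a1, Col17a1, Col27a1, Col11a2 and Col5a3) and Itgb1 lower, beside 355 higher and 482 lower among all 10970 genes tested in that fit.

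**Figure D5:**
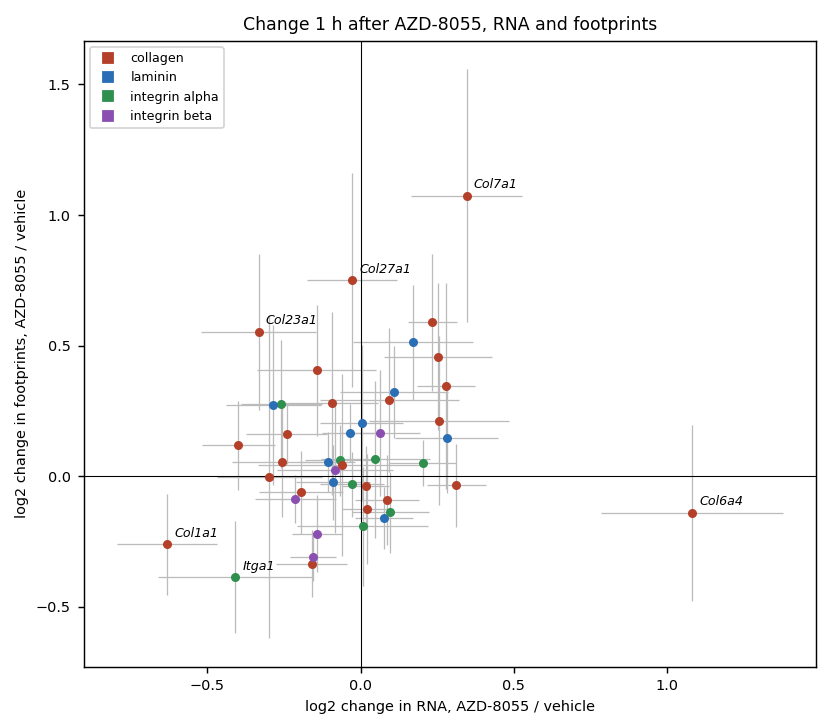
Log2 change after AZD-8055 in RNA (horizontal axis) and in footprints (vertical axis) for 45 genes tested in both, with bars of 1 SE and the families in colour. No gene was called in either test, and Col7a1 and Col6a4 lie farthest from 0.

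Messages that mTOR inhibition is known to take off ribosomes start with a cytosine followed by a run of pyrimidines. A C followed by 4 pyrimidines was searched at the RefSeq start on the transcribed strand (GRCm38.p6) and stood in 813 of 27025 genes with a start window (3.01%). Among genes tested for a TE change it was present in 264 of 8855 (2.98%), and in 4 of the 27 (14.8%) with a window that were called lower in TE after AZD-8055. By its own test and gene list, the paper counts all genes with a significant TE loss over 2-fold as carriers of such a motif. The search at the RefSeq start can therefore miss carriers, and a missing match does not show that a gene lacks the motif. Of the genes described here 58 had a window and 7 held the motif, 5 of which were tested for a TE change. A gene with several RefSeq starts counts if 1 of them holds it, and Itga3 has another start, at 11:95069198, without it. These 5 are printed with 10 bases before and 20 from the start on, the first 5 transcribed bases in capitals, as the members of the set that share this feature.

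Col6a1, chr10:76726025-76726054 (-): cctccctccaCCCTCcctggctctctcctc
Col27a1, chr4:63215402-63215431 (+): ccaaatccttCCTTTtcctctcctccccca
Lama2, chr10:27616923-27616952 (-): ggggactgccCTTTCtcacccacccttggg
Lamb1, chr12:31265283-31265312 (+): ttctaattccCTTCTttgggccggtgggct
Itga3, chr11:95076695-95076724 (-): ggggaggatcCCTCCctcctgccctcctgg

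None of the 5 changed in TE by the test. Their log2 TE changes were -0.37 for Col6a1, 0.80 for Col27a1, 0.05 for Lama2, -0.25 for Lamb1 and 0.11 for Itga3, which is 3 above and 2 below 0. A match at an annotated start is a description of these letters and not of the start used in brain.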

How the data were processed

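Poly(A) RNA-Seq and ligation-free ribosome profiling libraries were analysed from the raw counts per gene that the authors deposited (12 libraries on CDS, 8 on exons). Per the labels, reads were processed with Bowtie2, TopHat2 and HTSeq on mm10 (versions not given in the sources used here). By the study's methods, footprint reads lost their first 5 and last 20 bases and poly(A) stretches, reads under 15 bases and rRNA matches were discarded, and unique reads were counted with strict intersection. Reads on UTRs do not enter CDS counts, and RNA reads carried no strand.

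Tests used edgeR 4.0.16 (R 4.3.3) with TMM factors, quasi-likelihood F-tests and Benjamini-Hochberg adjustment over all genes averaging 37 or more counts over the libraries of the fit, at 0.05. Calls in TE, TE change and HA-IP also needed a fold over 2. TE used 8 libraries in 4 groups, footprints and RNA 4 libraries each, and HA-IP the 4 exon libraries of mice E and F. Normalised counts were divided by DESeq2 1.42.0 size factors, and per-mouse TE needed 75 counts over both mice. Figures were drawn with matplotlib 3.10.9. Alternatives were DESeq2, other scalings, filters and fold limits, CDS or exon counts, the mouse as a block, and leaving out each mouse. The procedure was tested on simulated data.

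The mouse pairs libraries, since both of a pair come from 1 animal. Deviations between mice correlated across libraries at 0.243 (A and B, 10167 genes), 0.197 (C and D, 9364) and 0.548 (E and F, 11710). With 2 mice a group, p-values rest on a spread estimated over all groups of a fit and moderated across genes, and so on few animals. The members and gene lists were chosen with earlier results of these data known. Genes named are those called, the 3 of each role with the most RNA, whole small families, and those nearest to a threshold. Starts came from RefSeq GRCm38.p6, the assembly of mm10, and 58 of 81 genes had a window. The values of 1 gene are not reported here and are not drawn.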

Additional observations from a re-analysis of the deposited data

How the results depend on the processing

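The counts of 20 lower TE calls and 45 falls in the HA-IP stayed within 1.5 times under every alternative run, and no called value of a named gene turned its direction. Values near 0 that were not called did, such as Col22a1 in the HA-IP (0.04, and -0.09 on CDS counts). Higher TE calls rose from 7 to 13 with a filter of at least 10 counts and to 18 without the fold limit. With the replicate block (mouse), 1 gene, Col6a4, was called lower in TE after AZD-8055, and the block changed no other call. In footprints, leaving out a mouse gave 0 to 5 higher and 0 to 1 lower calls, all from the fit without mouse C, and in RNA 0 to 1 higher, from that without mouse B (Col6a4). In the HA-IP, 1 gene was called higher with DESeq2, with at least 10 counts, without the fold limit and without mouse F (0 to 1 over the fits that leave out a mouse). The cause was not tested. Scaling by total counts moved the median of all genes from -0.01 to -0.15 in TE, where 6 of the members were then higher and 21 lower. Footprint depth limits TE for genes under 75 counts.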

Other observations

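Partners of these genes were followed as 4 lists. Of 17 basement membrane and matrix partners, 16 fell in the HA-IP (median log2 change -2.07), among them fibronectin Fn1 (-4.14), the nidogens Nid1 (-3.31) and Nid2 (-3.47), which bridge laminin and collagen IV, Sparc (-3.21) and tenascin-R, Tnr (-2.79). Of 18 genes for collagen synthesis and processing 11 fell (median -1.35), including the collagen chaperone Serpinh1 (-3.18), the procollagen enhancer Pcolce (-3.27) and the lysyl hydroxylases Plod1 (-2.46) and Plod2 (-2.17). Of 16 genes of the cytoplasmic adhesion complex 6 fell (median -0.48), with talin Tln1 at -2.25 and paxillin Pxn at -2.39. Of 6 non-integrin matrix receptors 2 fell, Ddr2 (-2.76) and Sdc4 (-2.85). Of all genes 21.8% fell in this test, and 15.6% of those over the filter in both input and HA-IP. Partners that passed the filter through the input alone had a fall built into their entry. They were not separated here, so these counts and folds are descriptions.

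In vehicle mice the TE of these partners was called in both directions. Thbs1 (2.63), Tnr (1.85), Sdc2 (1.53) and Sdc4 (1.43) were higher, and Thbs3 (-2.77), the procollagen C-proteinase Bmp1 (-2.50), the prolyl 3-hydroxylase Lepre1 (-2.01), agrin Agrn (-1.83) and paxillin Pxn (-1.78) were lower. Thbs1 entered the test through its footprints, and Thbs3 and Lepre1 through their RNA, so their directions were built into their entry. The counts were 2 higher and 3 lower of 17 matrix partners, 1 and 2 of 17 processing genes, 2 and 2 of 16 adhesion genes, and 2 and 0 of 4 receptors. Of all genes 13.2% were higher and 17.6% lower, so the counts of the first 3 lists lay near or under that background.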
